A study of Mus musculus with 30 samples.

Results

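Voltage-gated sodium and calcium channels, potassium channels and chloride channels of the CLC family were examined in the gastrocnemius muscle of mice kept on a stable or on a repeatedly shifted light schedule. Genes were chosen by symbol, from 4 name patterns: those starting with Kcn, Cacn or Clcn, and those of the Scn channels whose symbols end in a or b. Of 148 symbols that matched, 41 passed the expression limits of a mean over 20 reads and a mean over 0.5 FPKM (fragments per kilobase of exon, scaled to the size of the library, a level corrected for length and depth). These 41 genes are described here, among 12030 genes of the whole table that passed the same limits. The other 107 symbols were under the limits, and 7 of them had no read in any library.

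All mice were wild-type C57BL/6J males, caged singly with a running wheel and 14 weeks old when the schedules began. The LD group (n = 14) stayed on a cycle of 12 h light and 12 h dark for 64 weeks. The ADV group (n = 16) lived on the same cycle moved forward by 8 h after each 4 days, also for 64 weeks, a model of chronic jet lag. Both groups had spent a period in constant darkness before the schedules began. Each library is 1 mouse and holds the gastrocnemius together with the plantaris. Both groups were sampled in daytime hours of a shared cycle, and the labels do not give the hour for each mouse.

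A skeletal muscle fiber fires when sodium channels of its surface and transverse tubules open, and it is quieted by chloride and potassium currents. The depolarization moves the voltage sensor of the L-type calcium channel, which opens the calcium release channel of the sarcoplasmic reticulum and starts contraction. Around each pore sit auxiliary subunits that set its trafficking and gating. Fast and slow fibers are known to differ in the density of several of these channels. In whole muscle, fewer cells of a type and less RNA per cell cannot be told apart.

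Promoter sequence is given for 3 of the genes on which the results turn, chosen from those called between the groups and those with the smallest FDR for fiber type, where an unbroken run of at least 150 of the 250 bases before the start of the deposited transcript is free of annotated exons. Only that exon-free stretch is shown, read 5′ to 3′ from GRCm39. Capitals mark matches on either strand to a palindromic E-box (CACGTG), a myogenic E-box (CAGCTG), a D-box (TTATGTAA), a MEF2-type site (CTANNNNTAG), a TATA box (TATAAA) or a GC box (GGGCGG). The plus-strand stretch of Clcn1 is chr6:42263369-42263594. Kcna7, also on the plus strand, is shown over chr7:45054827-45055076. Cacng1, on the minus strand, is shown over chr11:107607409-107607598.
Clcn1: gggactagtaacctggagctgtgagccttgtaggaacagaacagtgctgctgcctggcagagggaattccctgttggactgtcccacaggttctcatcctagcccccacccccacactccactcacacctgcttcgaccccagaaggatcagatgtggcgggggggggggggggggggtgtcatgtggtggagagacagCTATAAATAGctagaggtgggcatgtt
Kcna7: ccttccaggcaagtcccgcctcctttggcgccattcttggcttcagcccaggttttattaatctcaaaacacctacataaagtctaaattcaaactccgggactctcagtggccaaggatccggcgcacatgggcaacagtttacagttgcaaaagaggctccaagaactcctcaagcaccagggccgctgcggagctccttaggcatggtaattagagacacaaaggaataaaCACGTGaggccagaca
Cacng1: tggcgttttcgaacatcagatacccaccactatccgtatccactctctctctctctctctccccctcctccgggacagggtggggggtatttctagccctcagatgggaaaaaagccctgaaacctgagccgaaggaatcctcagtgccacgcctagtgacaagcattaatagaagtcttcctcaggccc

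The Clcn1 stretch holds the single MEF2-type match of the 41 windows, beginning 51 bases before the start, and a TATA box match lies inside it. The MEF2-type letters occur in 2.90% of the windows of all 12028 genes with a window. The palindromic E-box was found in 4 of 41 windows, one of them that of Kcna7, 16 bases before its start, against 8.29% of all windows. The myogenic E-box was found in 11 of 41 (26.8%), among them those of Cacna1s and Kcna5 and, 46 bases before the start in a part not shown, that of Cacng1, against 12.0% of all windows. A GC box was in 23 of 41 windows (56.1%) against 56.5% of all. No member window held the D-box, which 0.499% of all windows hold. Of the 41 windows, 20 lie wholly inside exons annotated for the same gene, those of Cacna1s, Kcnab1 and Kcnc1 among them. Only 6 are free of annotated exons, so the shares above count letters of exons too. The exon content of the windows of all genes was not counted. The windows of Kcnab1 and Kcnc1 are not shown for this reason. A match is a description of the letters only.

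The mean level over all 30 mice had a median of 7.03 FPKM over the 41 genes, against 4.84 over all genes tested, and the lowest was 0.501 FPKM. Cacna1s, the pore and voltage sensor of the L-type calcium channel, was at 207 FPKM, and Cacng1, its gamma subunit, at 195 FPKM. Scn4a, the pore of the muscle sodium channel, was at 85.9 FPKM, close to the beta subunit Scn4b at 84.7. Cacna1s and Cacng1 overlapped in their ranges over mice in each group, and so did Scn4a and Scn4b. The pores that define skeletal muscle, Scn4a, Cacna1s and Clcn1, were thus among its most abundant channel genes.

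The sodium channel pores tested were 2 of 10 symbols, with Scn7a, a sodium sensor known from glia and neurons, at 1.76 FPKM. Among calcium channel pores Cacna1a, known from the motor nerve terminal, was at 0.518 FPKM. Cacna2d1 (54.9 FPKM) and Cacnb1 (31.2 FPKM) supply the alpha2delta and beta subunits of the muscle L-type channel, and their tested relatives Cacna2d4 and Cacnb3 were at 0.665 and 0.580 FPKM. Of the gamma subunits, 3 of 8 symbols passed, from 8.58 FPKM for Cacng7 to 195 for Cacng1.

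Voltage-gated potassium pore genes were the largest class, with 10 of 40 symbols tested between 1.42 and 30.0 FPKM, led by Kcna7. Kcnj11, the pore of the ATP-sensitive potassium channel that couples membrane voltage to the energy state of the fiber, was the most abundant potassium channel gene at 41.6 FPKM and headed 4 inward rectifiers. Kcnma1, the large-conductance calcium-activated channel, reached 9.31 FPKM, and its small-conductance relatives Kcnn1 and Kcnn2 were below it. The 3 two-pore leak channel genes were all within 0.501 to 0.630 FPKM. Of the CLC family 6 of 9 symbols passed, with Clcn1, the main chloride channel of the fiber surface, at 44.1 FPKM and the endosomal and lysosomal members at 13.9 FPKM or less. The genes nearest the expression limit were Kcnk5 (0.501 FPKM) inside it and Cacna1h (0.433 FPKM) outside it.

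**Figure D1:**
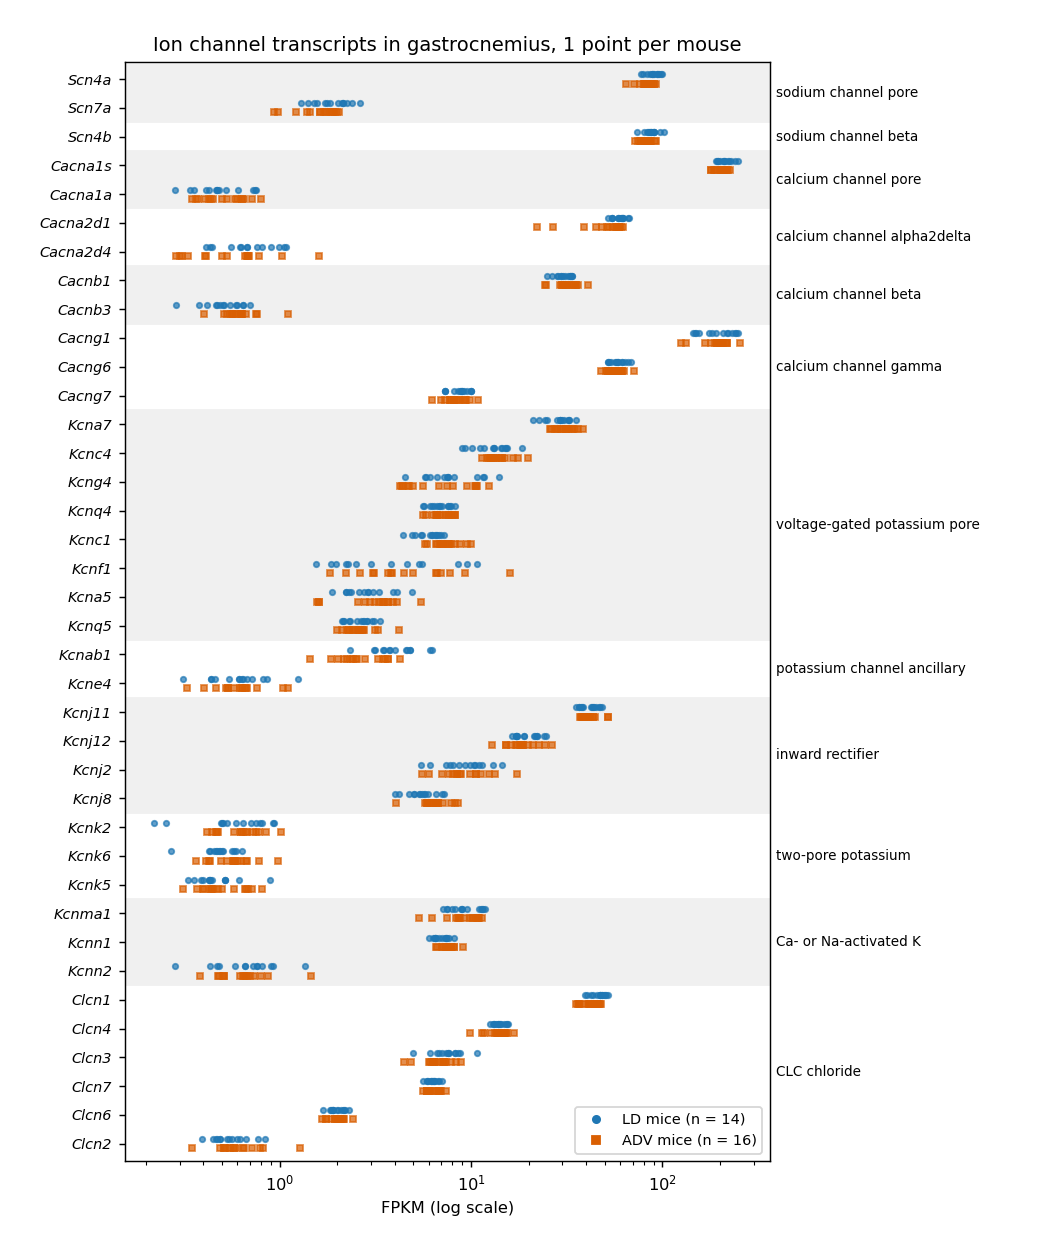
FPKM of 38 ion channel genes on a log axis, 1 point per mouse, with circles for LD mice (n = 14) and squares for ADV mice (n = 16), grouped by channel class. Cacna1s and Cacng1 lie highest, the 2 groups overlap in every row, and Kcnf1 shows the widest spread between mice.

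Spread between mice of a group was somewhat wider for the members than for the table as a whole. The coefficient of variation had a median of 16.9% in the LD group and 16.4% in the ADV group over the 41 genes, against 12.4% and 14.3% over all genes tested. Kcnf1, a silent subunit that modifies other voltage-gated potassium channels and was singled out here after its values were seen, varied most in both groups. Its level ran from 1.56 to 10.7 FPKM in the LD mice (median 3.41) and from 1.84 to 16.0 FPKM in the ADV mice (median 4.17).

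Libraries held 18875468.5 to 28512674 read pairs on exons. The share of reads on exons was 91.17 ± 0.12% (SD) in the LD group and 91.53 ± 0.37% in the ADV group (two-sided permutation test, p = 8.0e-05), and ADV 34 (92.7%) and ADV 25 (92.0%) were highest. Clock gene levels differed between the groups: a clock score, the mean log2 level of 8 clock-controlled and repressor genes (Dbp among them) minus that of 4 genes of the opposite phase (Bmal1 among them), was 1.68 ± 0.81 in LD and 0.49 ± 0.52 in ADV mice (two-sided permutation test, p = 5.0e-05). A slow-fiber score, the mean log2 level of 8 slow sarcomere and calcium genes minus that of 8 fast ones, was -7.30 ± 1.42 in LD and -6.58 ± 0.80 in ADV mice (two-sided permutation p = 0.0894). Markers of other cells were set beside all genes tested, of which 5.61% were called higher and 5.2% lower in the ADV group (edgeR FDR under 0.05). In that group 1 of 7 tested Schwann cell genes, 2 of 10 endothelial, 1 of 9 vessel wall and 1 of 10 adipocyte genes rose. None of 8 leukocyte genes passed, and 1 of 10 fibroblast genes fell. The median log2 fold changes of these 6 lists were 0.45, 0.12, 0.19, 0.32, -0.26 and -0.07 in that order, and cell make-up was not tested. Of 7 denervation genes 1 rose, and of 10 immediate early genes 7 rose.

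The comparison of the ADV with the LD group asks whether the shifted schedule changed these channels. Kcnab1 and Clcn1 fell and Kcnc1 rose in the ADV group, among 4 of 41 genes (9.76%) called at a false discovery rate (FDR) under 0.05 in edgeR's quasi-likelihood test, against 10.8% of all genes tested. The share was near the background. By direction 1 rose (2.44%, against 5.61% of all genes) and 3 fell (7.32%, against 5.2%). Kcnab1 was the only member to pass the limits of a differentially expressed gene (FDR under 0.05 and a fold change over 1.3), which is 2.44% of the members against 2.09% of all genes. The median log2 fold change was -0.01 over the 41 genes and 0.00 over all genes.

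Kcnab1 (GRCm39 chromosome 3, 65016805 to 65285640, plus strand, 14 exons) encodes a cytoplasmic beta subunit that binds voltage-gated potassium channels and speeds their inactivation. Its level was 2.35 to 6.28 FPKM in the LD mice (median 3.88) and 1.45 to 4.26 FPKM in the ADV mice (median 2.53). The ranges overlapped, with 15 of 16 ADV mice below the LD median and ADV 24 lowest. The coefficients of variation were 26.8% (n = 14) and 28.7% (n = 16), and the log2 fold change was -0.60 ± 0.15 (SE) with edgeR FDR = 0.0101. The fall kept its FDR under 0.05 when any single mouse was left out, at most 0.0222 without LD 28. Its slope on the slow-fiber score was -0.16 ± 0.07 (SE, FDR = 0.143), and -0.25 (FDR = 0.0271) without LD 23.

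Kcnc1 (chromosome 7, 46047072 to 46088128, plus strand, 4 exons), a fast delayed rectifier that allows repetitive firing, was at 4.43 to 7.22 FPKM in the LD mice (median 6.24) and at 5.72 to 10.003 FPKM in the ADV mice (median 7.37). The ranges overlapped, and 14 of 16 ADV mice were above the LD median. The log2 fold change was 0.29 ± 0.07 (SE, edgeR FDR = 0.0122). Removal of a trend with GC content took this call away (log2 fold change 0.18, FDR = 0.140).

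Clcn1 (chromosome 6, 42263619 to 42291590, plus strand, 23 exons) was at 39.3 to 51.7 FPKM in the LD mice (median 47.3) and at 35.5 to 47.5 FPKM in the ADV mice (median 42.2). Its difference was the smallest of these 3, a log2 fold change of -0.16 ± 0.05 (SE, edgeR FDR = 0.0405), with 15 of 16 ADV mice below the LD median. Its call was also unsteady. The FDR was between 0.0506 and 0.0681 in 14 of 30 fits with a mouse left out, namely LD 21, 23, 26, 27, 28, 30, 35 or 36 and ADV 24, 30, 31, 33, 34 or 35. With the slow-fiber score in the model Clcn1 did not pass (FDR = 0.116), while Kcnab1 (FDR = 0.0381) and Kcnc1 (FDR = 0.0452) did. The libraries were stranded, but reads were counted without a stated strand setting. Of the Clcn1 exon bases 10.1% overlap the opposite-strand gene Fam131b, and for Kcnab1 the largest such overlap was 3.63%.

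**Figure D2:**
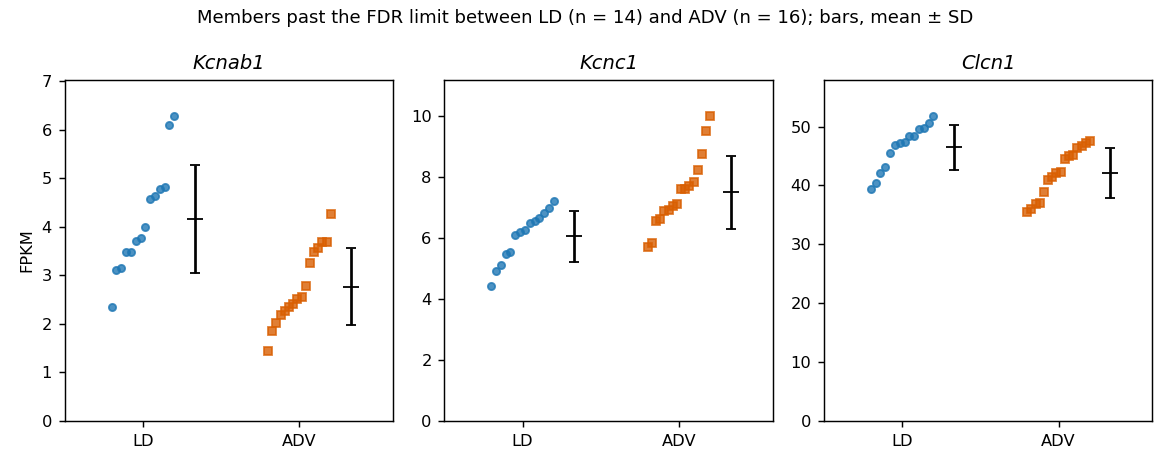
FPKM of Kcnab1, Kcnc1 and Clcn1 by mouse, from 0, with circles for LD (n = 14) and squares for ADV (n = 16) and black bars for the mean ± SD of each group. Points of the 2 groups overlap in each panel, and the ADV mean is higher for Kcnc1 alone.

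Scn4a, Scn4b and Cacna1s did not pass the limit. Scn4a was at 77.3 to 99.8 FPKM in the LD mice (median 89.7) and at 64.7 to 92.8 FPKM in the ADV mice (median 83.0), a log2 fold change of -0.14 ± 0.05 (SE) with edgeR FDR = 0.0577. DESeq2 called both Scn4a (FDR = 0.0400) and Scn4b (FDR = 0.0436). In edgeR Scn4b had FDR = 0.0669 and, among the inward rectifiers, Kcnj8, known from vessel walls, had FDR = 0.0769 with a log2 fold change of 0.23. These 3 were the genes nearest to the limit from outside. For Cacna1s the log2 fold change was -0.08 ± 0.05 (SE), with FDR = 0.307. The summed level of 9 vessel wall genes, beside which Kcnj8 can be read, was 94.1 to 142 FPKM in LD and 110 to 170 FPKM in ADV mice, and 1 of the 9 rose; their part in the Kcnj8 value was not tested.

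Cacna2d1 was at 51.7 to 66.5 FPKM in the LD mice (median 60.1) and at 22.1 to 62.2 FPKM in the ADV mice (median 56.0). The low end was set by ADV 34 (22.1 FPKM) and ADV 25 (26.95 FPKM), the libraries with the highest share of reads on exons, and next by ADV 24 (38.9 FPKM). The log2 fold change was -0.24 ± 0.10 (SE, edgeR FDR = 0.114) and, without ADV 25 and ADV 34, -0.14 (FDR = 0.147). Leaving out these 2 libraries, a choice made after the data were seen, left 4 members called, Kcnab1, Kcnc1 and Clcn1 (FDR = 0.0493) among them, while the share of all genes called went from 10.8% to 6.19%.

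By class, 6 of 12 held both signs. Of the 10 voltage-gated potassium pore genes 6 had positive and 4 negative log2 fold changes, between -0.20 and 0.29. Of the CLC genes 5 of 6 were negative (-0.19 to 0.15). The other 6 classes held 2 or 3 genes each, all of one sign. Negative were both sodium channel pores (-0.26 and -0.14), both alpha2delta subunits (-0.24 and -0.23), the 3 gamma subunits (-0.08 to -0.04) and the ancillary potassium channel genes Kcnab1 (-0.60) and Kcne4 (-0.03). Positive were both calcium channel beta subunits (0.06 and 0.27) and the 3 two-pore channels (0.02 to 0.21). In these one-sign classes and the CLC family, only Kcnab1 and Clcn1 passed the test. The inward rectifiers lay between -0.09 and 0.23 and the calcium- or sodium-activated channels between -0.09 and 0.11. Over all members, 12 of 41 (29.3%) had an unadjusted p under 0.05, against 30.1% of all genes. Reads on the 41 genes together were 0.467 ± 0.021% of the library in LD and 0.447 ± 0.014% in ADV mice (two-sided permutation test, p = 0.0070). This sum is weighted to a few genes, with means of 31212 reads for Cacna1s and 13744 for Scn4a, against a median of 620 over the members. It therefore does not describe the family as a whole, whose median log2 fold change was -0.01.

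**Figure D3:**
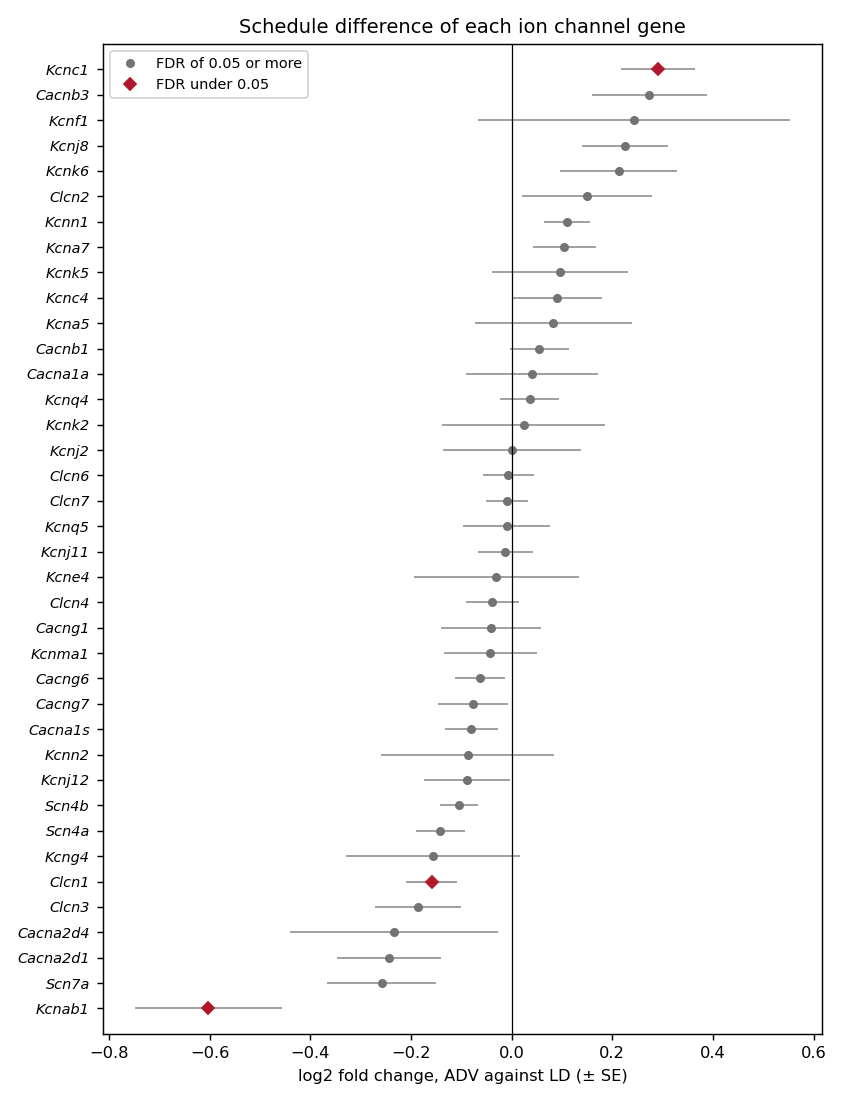
Log2 fold change of 38 of the genes, ADV against LD, with its SE as bars, sorted by value; red diamonds are genes with an edgeR FDR under 0.05. Kcnc1 lies at 0.29 and Kcnab1 at -0.60, and the other genes lie between -0.26 and 0.27.

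The split of directions moved when a trend with GC content was removed. The exons of the members had a median GC content of 54.6%, against 50.4% for all genes. With the GC trend of each library removed, 6 members (14.6%) were called, against 5.01% of all genes. All 6 were lower in the ADV group, in place of 1 higher and 3 lower, while of all genes 293 were higher and 310 lower. The median log2 fold change over the 41 members moved from -0.01 to -0.08, and that over all genes from 0.00 to -0.01. Kcnab1 and Clcn1 were among them, Scn4a (-0.20, FDR = 0.0250) and Scn4b (-0.16, FDR = 0.0277) were added, and Kcnc1 was no longer called. The part of GC content in the difference was not tested further.

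Daily phase was examined as the slope of each gene on the clock score, with the group held in the model. All mice were sampled in daytime hours, so changes over the rest of the day could not be seen. No member passed (0 of 41, against 0.241% of all genes, edgeR FDR under 0.05). DESeq2 called 0 members as well, against 0.707% of all genes. At an unadjusted p under 0.05 were 3 members (7.32%, against 9.79% of all genes). The slopes of Dbp and Bmal1, genes of the score itself, were 1.05 ± 0.09 and -0.57 ± 0.07 (SE). The members with the smallest p were Cacna1a (slope -0.23 ± 0.09, FDR = 0.374), Kcnj11 (-0.09 ± 0.04, FDR = 0.419) and Scn7a (0.17 ± 0.08, FDR = 0.464). The summed Schwann cell markers, beside which Scn7a can be read, were 25.1 to 48.2 FPKM in LD and 26.97 to 84.2 FPKM in ADV mice, and their part in it was not tested. For Kcnj11 the slope was -0.14 in the LD mice alone (FDR = 0.0709) and 0.01 in the ADV mice alone.

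In the LD mice alone, whose scores ran from 0.22 to 2.86, again 0 of 41 passed, while 2.19% of all genes passed. In the ADV mice the scores ran from -0.35 to 1.88. The slopes of the 2 groups were compared directly, and 0 of 41 members differed at FDR under 0.05, with 2 at an unadjusted p under 0.05 and 0 by DESeq2. Of all 12030 genes edgeR called 0 and DESeq2 96 (0.798%), so the count of 0 is not particular to the members. The 2 were Clcn3, an endosomal member of the CLC family (ADV minus LD 0.35 ± 0.12, FDR = 0.218), and Kcnf1 (-1.40 ± 0.48, FDR = 0.226). Each rested in part on a single mouse, since the difference was 0.20 for Clcn3 without ADV 21 (FDR = 0.707) and -0.87 for Kcnf1 without ADV 31 (FDR = 0.716). Kcnf1 had a slope of 0.67 ± 0.29 log2 units per unit of the score in the LD fit and one of -0.73 ± 0.35 in the ADV fit, neither past the limit.

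Because the clock score and the group moved together, the schedule difference was also fitted with the score in the model. No member was then called, and no gene of the table was. The log2 fold changes were -0.47 for Kcnab1, 0.25 for Kcnc1 and -0.15 for Clcn1 in that fit. Schedule and clock phase at sampling cannot be told apart here.

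Fiber make-up was examined as the slope on the slow-fiber score, again with the group in the model. Kcna7, Kcna5, Kcnn2 and Cacna1a rose with the score, and Cacng1 and Cacng7 fell. In all, 7 of 41 genes (17.1%) passed at an edgeR FDR under 0.05, against 10.1% of all genes. Of the members 4 rose (9.76%, against 6.59% of all genes) and 3 fell (7.32%, against 3.47%). At an unadjusted p under 0.05 were 18 of 41 (43.9%), against 23.4% of all genes, and the median size of the slope was 0.07 log2 units per unit of score, against 0.03 for all genes. Genes of the score itself were no members.

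Kcna7, the most abundant of the voltage-gated potassium pores, had a slope of 0.11 ± 0.02 (SE) log2 units per unit of the score (FDR = 0.00106). It was at 24.3 and 21.2 FPKM in LD 23 and LD 33, the mice with the lowest scores (-10.5 and -9.29), and at 38.5 FPKM in ADV 24, the mouse with the highest (-4.57). Kcna5, a delayed rectifier, had a slope of 0.21 ± 0.06 (FDR = 0.0221) and levels of 2.23, 1.88 and 5.45 FPKM in those 3 mice.

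Among calcium channel genes 2 of 3 gamma subunits fell with the score. Cacng1, known to limit the current of the muscle L-type channel, had a slope of -0.16 ± 0.04 (SE, FDR = 0.00502), with 242 and 230 FPKM in LD 23 and LD 33 and 133 FPKM in ADV 24. Cacng7 had a slope of -0.10 ± 0.03 (FDR = 0.0129). All 3 gamma subunits had negative slopes, that of Cacng6 (-0.05) not passing. Cacna1s itself had a slope of -0.05 ± 0.02 (FDR = 0.148), and Cacnb1 one of -0.01 ± 0.03 (FDR = 0.871). Cacna1a rose at low level, with a slope of 0.20 ± 0.05 (FDR = 0.00936) and 0.340, 0.284 and 0.718 FPKM in the 3 mice.

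Kcnn2, a small-conductance calcium-activated potassium channel, had a slope of 0.23 ± 0.07 (SE, FDR = 0.0232), and its mean of 0.683 FPKM rests on 58.6 reads per library. Of its exon bases, 28.1% overlap the opposite-strand gene Gm56506, so that reads of both may be mixed if the counting ignored strand. Kcnma1 came next in the order (slope 0.11 ± 0.04, FDR = 0.0733). Sodium channel genes showed no call, with a slope of -0.05 ± 0.02 for Scn4a (FDR = 0.183). Clcn1 had a slope of -0.05 ± 0.02 (FDR = 0.130), so that the CLC family gave none either.

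**Figure D4:**
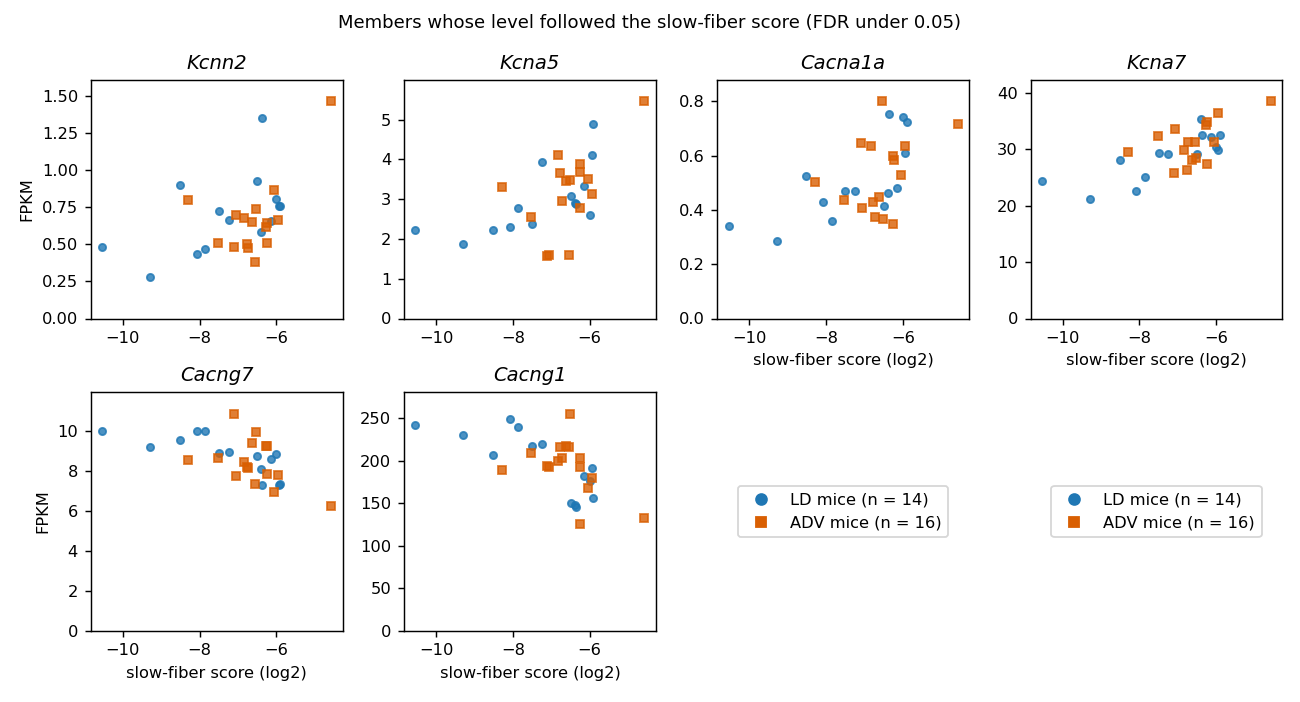
FPKM of 6 called members against the slow-fiber score (mean log2 level of slow minus fast fiber genes), 1 point per mouse, with circles for LD (n = 14) and squares for ADV (n = 16). Kcnn2, Kcna5, Cacna1a and Kcna7 are highest or near highest in ADV 24 at the right end (-4.57), and Cacng7 is lowest there.

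The 2 groups are separate mice and were fitted separately. In the LD mice 7 of 41 members passed, against 8.96% of all genes, and in the ADV mice 0 of 41, against 0.998%. The LD call list held Kcnma1 (slope 0.13, FDR = 0.00943) and not Kcnn2. All 7 genes called over 30 mice had a slope of the same sign in each group. They were chosen by a fit over these same mice, which favors equal signs, so this is no independent check. For Kcna7 the slope was 0.12 ± 0.02 in LD and 0.09 ± 0.04 in ADV mice, and for Cacng1 -0.15 ± 0.04 and -0.18 ± 0.08 (SE). The difference of slopes passed for 0 of 41 members, with 2 at an unadjusted p under 0.05 (Kcnk5, FDR = 0.536, and Kcnk6, FDR = 0.594) and 0 by DESeq2. Of all genes edgeR called 0 as well and DESeq2 1.

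Across the 14 LD mice Kcna7 correlated with the score at Pearson r = 0.82 (permutation p = 0.00048, adjusted over all genes 0.0176) and Spearman rho = 0.84 (permutation p = 0.00028, adjusted 0.0309), and r was 0.73 without the 2 mice farthest from the median score. For Cacng1 the values were r = -0.73 (permutation p = 0.00314, adjusted 0.0456) and rho = -0.69 (permutation p = 0.00753, adjusted 0.0991), with r = -0.73 without those mice. In the 16 ADV mice Kcna7 had r = 0.46 (permutation p = 0.0717, adjusted 0.509) and rho = 0.47 (permutation p = 0.0671, adjusted 0.605), and r = 0.33 without the 2 farthest. Cacng1 there had r = -0.51 (permutation p = 0.0511, adjusted 0.452) and rho = -0.36 (permutation p = 0.173, adjusted 0.719), and r = -0.33 without them. These correlations were computed for all 12030 genes in each group. By r both relations passed the adjustment in the LD group and not in the ADV group, by rho that of Kcna7 alone did, and their slopes did not differ between the groups past the limit (FDR = 0.926 for Kcna7 and 0.974 for Cacng1).

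The calls rested on the mice at the ends of the score. Without LD 23, LD 33 and ADV 24, a set chosen after the data were seen, 0 of 41 members and 108 of all genes were called. The slopes were then 0.11 for Kcna7, 0.21 for Kcna5, 0.18 for Cacna1a, -0.18 for Cacng1 and -0.12 for Cacng7, and that of Kcnn2 was 0.09. Without ADV 24 alone 5 members were called, and the FDR was 0.0515 for Cacng7, 0.0775 for Kcna5 and 0.130 for Kcnn2. Kcna5 also lost its call without LD 22 (FDR = 0.0529), and Kcnn2 without LD 33 (FDR = 0.0696).

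**Figure D5:**
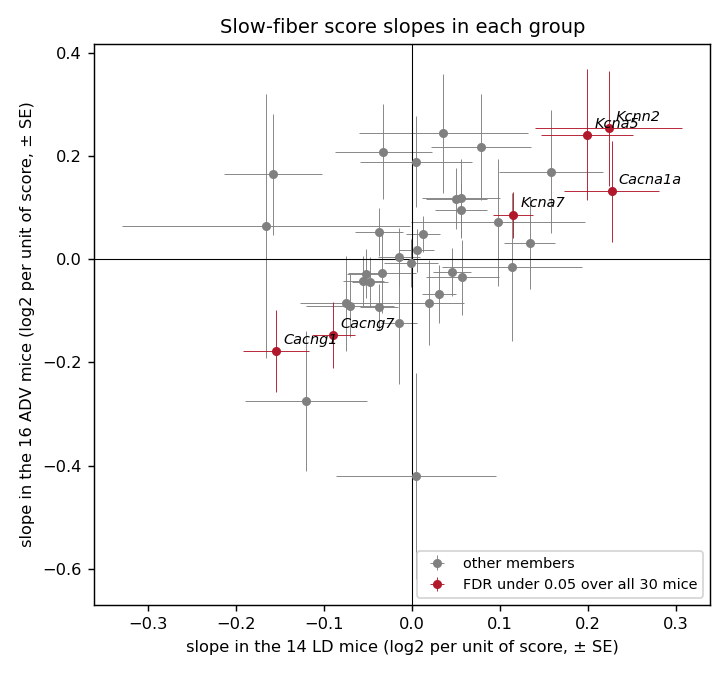
Slope of 38 of the genes on the slow-fiber score in the 14 LD mice (horizontal) and in the 16 ADV mice (vertical), in log2 units per unit of the score with SE bars; red points are 6 genes called over all 30 mice. The red points lie in the upper right or lower left, and Cacng1 sits at -0.15 and -0.18. They were chosen by a fit over these same mice, which favors equal signs in the 2 groups.

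A list of 52 partners of excitation and calcium handling was set beside the members, of which 44 were tested. Between the groups 1 of the 44 rose and 2 fell, against 5.61% and 5.2% of all genes. Trdn, the triadin of the calcium release complex, fell (-0.14 ± 0.04, FDR = 0.0226), as did Ano5, a membrane protein of the anoctamin family (-0.33 ± 0.08, FDR = 0.00778). With the clock score 0 of 44 were called, against 0.241% of all genes. The smallest FDR values were those of Fgf13, Orai1 and Mrln (0.422, 0.446 and 0.602).

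With the slow-fiber score 9 of the 44 partners rose and 7 fell, against 6.59% and 3.47% of all genes. The called partners include Atp2a1 and Atp2a2, genes of the score itself. Atp1b1, the beta subunit of the sodium-potassium pump, had a slope of 0.41 ± 0.05 (SE, FDR = 2.59e-07), and Pln, the brake on the slow-fiber calcium pump, one of 0.68 ± 0.10 (FDR = 2.24e-05). Myh7 and Myh4, myosins of slow and fast fibers that are part of the score, had slopes of 1.002 ± 0.048 and -0.17 ± 0.03 (SE).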

How the data were processed

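The labels and the study's methods describe stranded, poly(A)-enriched, paired-end RNA sequencing of 30 gastrocnemius libraries (LD n = 14, ADV n = 16). The authors trimmed reads with Trimmomatic and mapped them to GRCm39 with STAR 2.7.10a. After removal of reads with a mapping quality under 10, they counted on exons with HOMER 4.11. The deposited estimated counts give each mate 0.5 read, so that 14.8% are not whole, and they were rounded here. The authors also deposited FPKM values of the same 57186 rows, used here for levels. The strand setting of the counting is not given in the sources used here. Columns were matched to mice by label, with 0 unmatched.

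The longest expressed row of each symbol was kept. Groups were compared with edgeR 4.0.16 in R 4.3.3 (quasi-likelihood F test, TMM normalization, Benjamini-Hochberg over 12030 genes). Slopes were fitted with the group as covariate, and the interaction of group and score tested their difference. Scores are means of log2 CPM computed here from the counts. Correlations and differences of scores used 100000 permutations (scipy 1.17.1). DESeq2 1.42.0, limma 3.58.1 on log2(FPKM + 0.1) and log2(FPKM + 1), other size factors, a looser filter (mean over 5 reads), a GC trend (natural spline, 4 degrees of freedom), other scores, the scores as covariates, each group alone, the replicate block and each library left out were alternatives. Leaving out sets of 2 or 3 libraries, and the 28 libraries of the block without it, were added after the data were seen. The tests were tested on simulated data.

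At 18875468.5 to 28512674 read pairs on exons, a gene near the limit of 20 reads carries a large counting error. Each library is a separate mouse, and no 2 libraries agreed within sampling noise.

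The genes and lists were chosen with earlier results of these data known. Genes named are members with FDR under 0.05 between groups, the most abundant member of each class, the 8 members with the smallest FDR for each slope, the 3 partners with the smallest FDR in each fit, and Bmal1, Dbp, Myh7 and Myh4. Others were named after their values were seen, as class members, for closeness to a limit, or for spread (Kcnf1). A few genes that these rules choose are not reported here, in the text or the figures, and counts still include them. Promoter windows were read from the GRCm39 genome, with exons of GENCODE vM39.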

Additional observations from a re-analysis of the deposited data

How the results depend on the processing

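The named members that were called between the groups kept their call in 136 of 164 alternatives and those called for the slow-fiber slope in 286 of 315, and none of them changed sign. Most of these fits differ little from the main one, since 30 of 41 per gene between the groups and 30 of 45 for the slope leave out 1 mouse. Clcn1 kept its call between the groups in 20 of 41. Between the groups 4 members were called, and 3 to 6 with 1 mouse left out; DESeq2 called 6 (1 higher, 5 lower), against 1679 of all 12030 genes, and the fit with the GC trend removed called 6 (0 higher, 6 lower), against 603. With the clock score as covariate the count was 0, and that of differentially expressed members was 0 in place of 1; with the slow-fiber score as covariate 2 were called. The cause was not tested. For the slow-fiber slope 7 members were called, and 5 to 9 with 1 mouse left out. That count was 0 in the ADV mice alone (0.998% of all genes called) and 0 without LD 23, LD 33 and ADV 24 (0.898%), but 7 in the LD mice alone (8.96%); the cause was not tested. With the replicate number as a block, over 28 mice, 1 member in place of 4 was called between the groups (Kcnab1) and 1 in place of 7 for the slope (Kcna7); the same mice without the block, a fit added after seeing the data, gave 3 and 6. Of all genes the block called 494 and 78, and the same mice without it 616 and 1038. Mice of equal number correlated at -0.26 to 0.43 with a median of 0.01, and 6 of 14 pairs were over 0.1. Of these mice 3 correlated best with their own number. Whether the numbers pair the mice was not tested. Member counts for the clock slope and for both differences of slopes were 0 in each alternative run. Members near 0.5 FPKM, such as Kcnk2 with a mean of 25.1 reads, have the largest counting error.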
